A study of Mus musculus with 8 samples.

Results

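The genes examined were the subunits of the transcription factor NF-kappaB and the proteins that restrain it. They were chosen by name, with earlier results of these data known, as 10 genes of the 16341 that were counted. Nfkb1, Rela and Rel encode subunits of the canonical arm, Nfkb2 and Relb those of the noncanonical arm, Nfkbia and Nfkbie classical IkB inhibitors, Nfkbiz and Bcl3 IkB proteins that act in the nucleus, and Tnfaip3 the ubiquitin-editing enzyme A20. All 10 passed the filter on low counts.

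4T1, a mouse mammary carcinoma line, was separated on magnetic columns by surface SCA1 into a positive and a negative fraction, called 4T1-Sca1+ and 4T1-Sca1-, and RNA was sequenced from 4 libraries of each. Both fractions were labelled CD45-negative. Neither carried a treatment or an engineered allele in the labels, which name parental 4T1 as the source of the cells, while the extraction protocol speaks of a stained 4T1 tumor. No time point or animal age was given, and nothing stated that the 4 libraries of a fraction came from separate sorts, so p-values measure only the spread between these libraries.

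NF-kappaB is a family of dimers that bind short DNA elements known as kB sites. In resting cells IkB proteins hold the dimers in the cytoplasm. TNF, IL-1 or Toll-like receptor signals activate the IKK kinase complex, which marks the inhibitors for destruction and frees canonical dimers such as p50 with RelA. In the noncanonical arm the kinase NIK drives the processing of p100, the product of Nfkb2, into p52, which pairs with RelB. Several of these genes, Nfkbia and Tnfaip3 among them, are themselves textbook targets of NF-kappaB and form negative feedback loops.

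Because the inhibitors and precursors are known both as regulators and as targets, their start sites were searched for the kB consensus on both strands. The consensus was GGGRNNYYCC, where R is A or G, Y is C or T and N is any base. RefSeq windows on GRCm38.p6, 300 bases long with 250 before and 50 after an annotated start, were matched for 7 of the 10 genes and gave 10 windows. Nfkb1, Relb and Nfkbiz had no window. The consensus was present in 6 of the 7 genes and in 8 of the 10 windows, while 9.55% of 27025 genes and 8.46% of 32851 windows held it. Among the 9167 genes that were tested and had a window, the share was 12.5%. The median GC content was 65.2% in the windows of the 7 genes and 52.7% in all windows. The windows printed here belong to Nfkb2 and Tnfaip3, which had the largest decreases, to the classical inhibitor Nfkbia, to Bcl3, which moved the other way, and to Rela, which had no match. They are written in the direction of transcription, and capitals mark the letters that match the consensus on either strand.

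The windows, with their GRCm38.p6 positions, read as follows. Chromosome and base numbers are whole numbers, and their decimal endings carry no meaning.
Nfkb2, chr19.0:46304487.0-46304786.0, plus strand: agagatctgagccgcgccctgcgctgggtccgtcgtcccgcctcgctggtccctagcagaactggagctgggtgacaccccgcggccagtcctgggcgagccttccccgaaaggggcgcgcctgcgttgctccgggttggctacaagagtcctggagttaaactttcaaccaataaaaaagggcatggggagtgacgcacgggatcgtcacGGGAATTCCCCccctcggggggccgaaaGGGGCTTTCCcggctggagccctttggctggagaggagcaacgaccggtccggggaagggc
Tnfaip3, chr10.0:19015361.0-19015660.0, minus strand: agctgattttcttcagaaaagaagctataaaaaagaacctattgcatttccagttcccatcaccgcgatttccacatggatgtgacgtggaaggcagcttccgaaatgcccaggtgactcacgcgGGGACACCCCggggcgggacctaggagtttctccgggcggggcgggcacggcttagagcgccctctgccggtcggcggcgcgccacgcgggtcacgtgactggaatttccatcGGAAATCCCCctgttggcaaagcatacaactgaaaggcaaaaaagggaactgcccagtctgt
Nfkbia, chr12.0:55492598.0-55492897.0, minus strand: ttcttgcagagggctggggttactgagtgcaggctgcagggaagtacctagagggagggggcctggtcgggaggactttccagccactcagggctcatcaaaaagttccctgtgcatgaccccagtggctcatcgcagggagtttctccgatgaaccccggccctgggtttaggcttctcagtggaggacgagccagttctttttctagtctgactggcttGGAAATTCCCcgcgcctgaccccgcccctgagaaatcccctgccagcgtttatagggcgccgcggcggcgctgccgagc
Bcl3, chr7.0:19822706.0-19823005.0, minus strand: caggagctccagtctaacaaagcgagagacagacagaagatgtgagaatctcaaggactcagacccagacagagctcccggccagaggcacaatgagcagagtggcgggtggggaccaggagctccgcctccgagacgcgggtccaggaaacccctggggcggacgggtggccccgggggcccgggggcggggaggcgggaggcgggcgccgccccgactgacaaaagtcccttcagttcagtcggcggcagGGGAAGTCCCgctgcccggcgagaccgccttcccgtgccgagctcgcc
Rela, chr19.0:5637291.0-5637590.0, plus strand: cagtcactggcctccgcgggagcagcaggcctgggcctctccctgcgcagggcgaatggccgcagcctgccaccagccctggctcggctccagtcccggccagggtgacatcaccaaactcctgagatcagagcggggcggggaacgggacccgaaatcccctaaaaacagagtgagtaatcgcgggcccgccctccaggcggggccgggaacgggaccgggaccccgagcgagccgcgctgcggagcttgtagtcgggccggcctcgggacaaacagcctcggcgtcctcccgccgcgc

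At the first Nfkb2 start the matches began 39 and 11 bases before the start, and the match at 39 is palindromic in its first 10 letters, GGGAATTCCC. A downstream Nfkb2 start held the match GGGACTTTCC 11 bases into the transcript, and the window of a further start, which overlaps it, held the same place. At Tnfaip3 the matches lay 125 and 12 bases upstream, at Nfkbia 29 bases upstream and at Bcl3 3 bases into the transcript. Rel held GGGAAATCCC 92 bases upstream and Nfkbie held GGGGGATTCC 106 bases upstream. A match describes these letters only, and it does not show that a factor was bound.

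**Figure D1:**
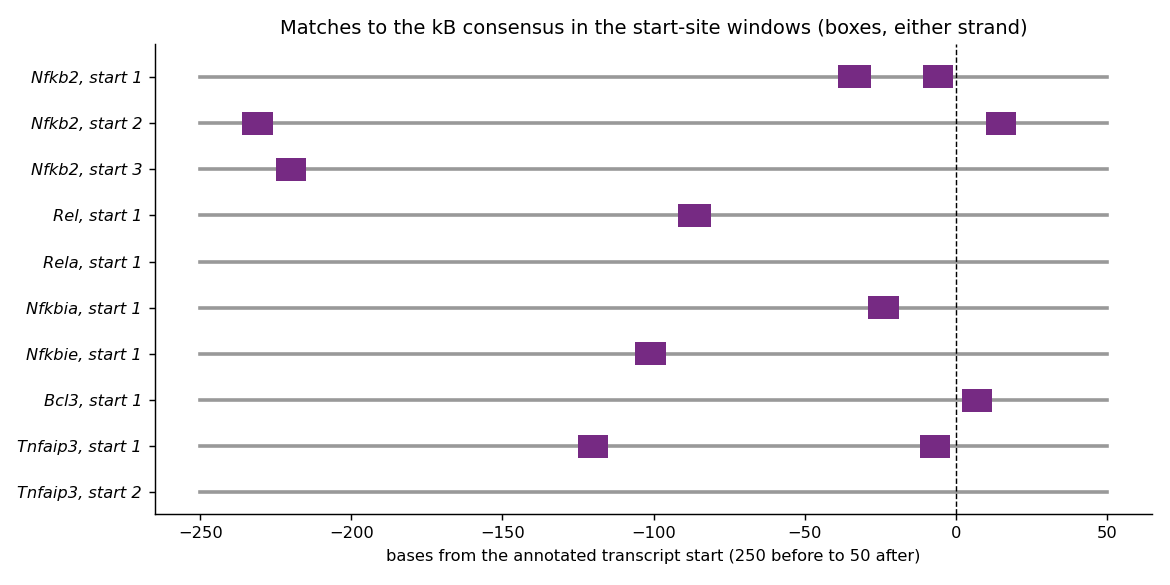
Matches to the kB consensus (purple boxes) in the 10 windows of 7 genes, plotted against the distance in bases from the annotated start (dashed line). The windows of Rela and of the second Tnfaip3 start hold none, and the matches of Nfkb2, Tnfaip3, Nfkbia and Bcl3 include one within 39 bases of a start.

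Every one of the 10 genes differed between the fractions, and 9 of them were lower in 4T1-Sca1+ cells. Bcl3 alone was higher. The decreases ran from 1.19-fold for Nfkb1 to 2.00-fold for Tnfaip3, and the median log2 fold change of the 10 genes was -0.57, against 0.01 over the 11717 genes tested. By edgeR's quasi-likelihood test with Benjamini-Hochberg adjustment over all tested genes, 30.2% of them were lower and 31.3% higher in 4T1-Sca1+ cells. In 9 genes all 4T1-Sca1+ libraries lay below all 4T1-Sca1- libraries, and in 1 they lay above, where 27.9% and 26.8% of all tested genes did so. Nfkb2, Rel, Nfkbie and Tnfaip3 were at least 1.5-fold lower, as were 4.08% of the tested genes. This count of 4 became 6, with Rela and Nfkbia added, when 4T1-Sca1+ replicate 3 was left out, and also with offsets corrected for GC content. In bulk RNA, fewer cells that express a gene and less RNA of it per cell cannot be told apart.

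Total counts per library ran from 13561804 to 16968215. Ly6a, which encodes SCA1 and checks the labels, averaged 167 ± 20.2 normalized counts in 4T1-Sca1+ and 1.79 ± 1.73 in 4T1-Sca1- cells (SD, n = 4). One library stood apart within its fraction, 4T1-Sca1+ replicate 3. Chi-square per degree of freedom was taken over the 10739 to 11131 genes of each pair that passed a minimum summed count. For replicate 3 against the other 4T1-Sca1+ libraries it was 7.37 to 10.7. Pairs among those others gave 2.26 to 4.17, and pairs among 4T1-Sca1- libraries 1.97 to 5.96. Without 4T1-Sca1+ replicate 3, the 10 genes kept their directions and calls by edgeR's test. Their log2 fold changes then ran from -0.98 for Tnfaip3 to 0.46 for Bcl3. Epithelial markers summed to 2497 to 2713 CPM (counts scaled by library size) in 4T1-Sca1+ and 2270.4 to 2412 CPM in 4T1-Sca1- libraries, with Krt5 the one marker of 7 at no more than 10 counts. Singly they differed in direction. Krt18 and Krt8 were higher in 4T1-Sca1+ cells, with log2 fold changes of 0.38 ± 0.04 and 0.31 ± 0.04 (SE). Cdh1 and Krt14 were lower, at -0.69 ± 0.04 and -0.23 ± 0.06 (SE), and Epcam and Krt19 were not called. Of 18 leukocyte markers, 15 were not counted or had at most 10 counts in every library, and Ptprc, which encodes CD45, reached at most 4. The whole leukocyte list summed to 25.2 to 28.7 CPM in 4T1-Sca1+ against 14.7 to 17.6 CPM in 4T1-Sca1- libraries, carried by Csf1r, Cd74 and Cd68. The fibroblast list summed to 40.0 to 42.9 against 24.7 to 28.8 CPM, with 4 of 8 markers at most at 10 counts or not counted, and the endothelial list to 2.24 to 2.69 against 2.85 to 4.19 CPM, with 4 of 6. Their part in the results was not tested.

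Among the canonical subunits, Nfkb1 (ENSMUSG00000028163, GRCm38 chromosome 3, 135584655 to 135691547, minus strand) encodes p105, the precursor of p50. Its normalized counts, which are counts divided by a size factor for each library, were 2923, 2797, 2912 and 2753 in 4T1-Sca1+ replicates 1 to 4 and 3394, 3491, 3384 and 3421 in 4T1-Sca1- replicates 1 to 4. The fractions did not overlap, and the fold difference was the smallest of the 10 genes. The means were 2846 ± 84.1 and 3422 ± 48.2 (SD, n = 4), a log2 fold change of -0.25 ± 0.04 (SE, adjusted p = 4.88e-05, edgeR).

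Rela (ENSMUSG00000024927, GRCm38 chromosome 19, 5637483 to 5648130, plus strand) encodes RelA, also called p65, which carries the transactivation domain of the main canonical dimer. Its counts were 2314, 2264, 2509.5 and 2295 in 4T1-Sca1+ and 3297, 3497, 3589 and 3615 in 4T1-Sca1- libraries. All 4T1-Sca1+ libraries were lower than every 4T1-Sca1- library. Means were 2346 ± 111 and 3499 ± 144, a 1.48-fold decrease with a log2 fold change of -0.56 ± 0.05 (SE, adjusted p = 1.88e-08, edgeR).

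Rel (ENSMUSG00000020275, GRCm38 chromosome 11, 23736847 to 23770970, minus strand) encodes c-Rel, a subunit best known from lymphocytes. It was the least abundant of the 10 genes, at 75, 97, 88 and 81 normalized counts in 4T1-Sca1+ and 169, 168, 125 and 154 in 4T1-Sca1- libraries. The fractions were again separate, although the lowest 4T1-Sca1- library, replicate 3, stood nearer to the 4T1-Sca1+ values than the others did. The log2 fold change was -0.85 ± 0.12 (SE, adjusted p = 7.66e-06, edgeR), the widest error among the 10 genes.

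Among the noncanonical subunits, Nfkb2 (ENSMUSG00000025225, GRCm38 chromosome 19, 46304320 to 46312385, plus strand) encodes p100, which serves as an inhibitor until it is cut to p52. Its counts were 4452, 4174, 5039 and 4456 in 4T1-Sca1+ and 7851, 8972, 8161 and 8059 in 4T1-Sca1- libraries. No 4T1-Sca1+ library came near the lowest 4T1-Sca1- library. Means were 4530.4 ± 364 and 8261 ± 492, a 1.81-fold decrease with a log2 fold change of -0.85 ± 0.06 (SE, adjusted p = 6.51e-10, edgeR). Nfkb2 overlaps Psd on the opposite strand, and the strand of the counting is not given in the sources used here. Psd held at most 80 counts in any library, where Nfkb2 held at least 4233, and the log2 fold change of Psd was 0.69. How reads of the shared stretch were counted is not known, and the part of the overlap in the Nfkb2 difference was not tested.

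Relb (ENSMUSG00000002983, GRCm38 chromosome 7, 19606217 to 19629438, minus strand) encodes the partner of p52. Its counts were 787, 784, 948 and 793 in 4T1-Sca1+ and 1019, 1113, 1011 and 973 in 4T1-Sca1- libraries. The 4T1-Sca1+ replicate 3 value of 948 lay close under the lowest 4T1-Sca1- library, and the other 3 lay well below. Means were 828 ± 79.9 and 1029 ± 59.6, a 1.23-fold decrease with a log2 fold change of -0.30 ± 0.06 (SE, adjusted p = 5.56e-04, edgeR).

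**Figure D2:**
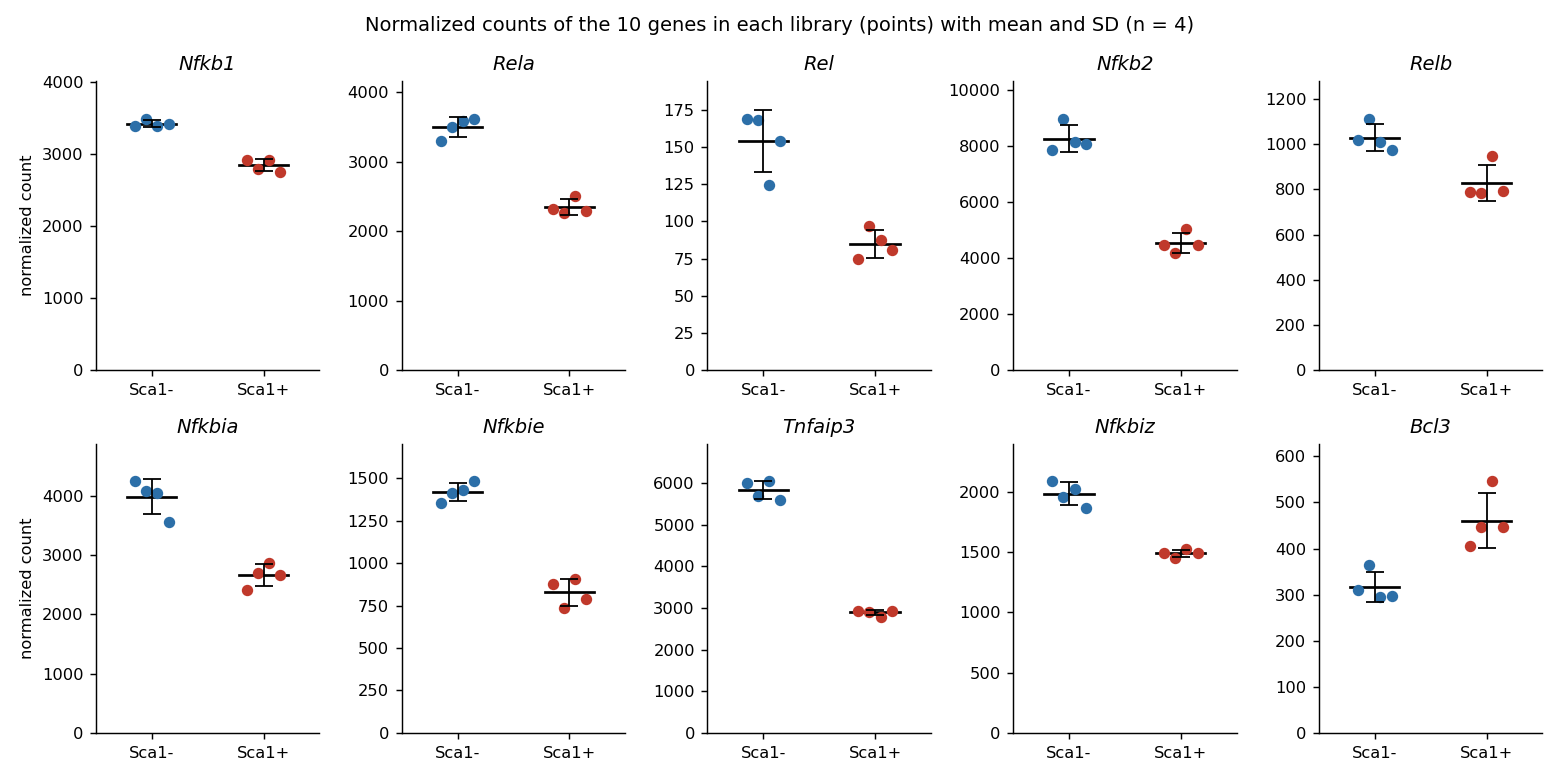
Normalized counts of the 10 genes in each library, with 4T1-Sca1- in blue and 4T1-Sca1+ in red, black lines for the mean and bars for the SD of 4 libraries, on vertical axes that start at 0. In each panel but that of Bcl3 the red points sit below the blue ones, with the widest gaps for Tnfaip3 and Nfkb2.

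The classical inhibitors were lower together with the subunits they bind. Nfkbia (ENSMUSG00000021025, GRCm38 chromosome 12, 55489410 to 55492647, minus strand) encodes IkBalpha, the rapidly turned over inhibitor of canonical dimers. Its counts were 2414, 2693, 2862 and 2668 in 4T1-Sca1+ and 4241, 4088, 4049.7 and 3565 in 4T1-Sca1- libraries. Within 4T1-Sca1- cells replicate 4 was lowest, yet above every 4T1-Sca1+ library. Means were 2659 ± 185 and 3986 ± 293, a 1.49-fold decrease with a log2 fold change of -0.57 ± 0.06 (SE, adjusted p = 1.90e-07, edgeR).

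Nfkbie (ENSMUSG00000023947, GRCm38 chromosome 17, 45555703 to 45563169, plus strand) encodes IkBepsilon. Its counts were 878, 736, 906 and 788 in 4T1-Sca1+ and 1353, 1412, 1429 and 1480.4 in 4T1-Sca1- libraries. The fractions were far apart compared with their spread. Means were 827 ± 79.0 and 1419 ± 52.5, a 1.70-fold decrease with a log2 fold change of -0.77 ± 0.06 (SE, adjusted p = 9.73e-09, edgeR).

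Tnfaip3 (ENSMUSG00000019850, GRCm38 chromosome 10, 19000910 to 19015657, minus strand) encodes A20, which removes and adds ubiquitin chains on signalling adaptors and ends the response. Its counts were 2936, 2915, 2795 and 2937 in 4T1-Sca1+ and 5995, 5696, 6040.0 and 5604 in 4T1-Sca1- libraries. The 4T1-Sca1+ libraries were nearly alike and all far below the 4T1-Sca1- libraries. Means were 2896 ± 68.0 and 5834 ± 216, a 2.00-fold decrease with a log2 fold change of -0.998 ± 0.04 (SE, adjusted p = 3.48e-12, edgeR). Of all tested genes, 0.905% had a lower log2 fold change than Tnfaip3.

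The nuclear IkB proteins moved in opposite directions. Nfkbiz (ENSMUSG00000035356, GRCm38 chromosome 16, 55811375 to 55838899, minus strand) encodes IkBzeta, which binds p50 on a set of secondary response genes. Its counts were 1489, 1449.6, 1526 and 1493 in 4T1-Sca1+ and 2086, 1956, 2024 and 1864 in 4T1-Sca1- libraries, with no overlap. Means were 1489 ± 31.3 and 1982 ± 95.1, a 1.32-fold decrease with a log2 fold change of -0.40 ± 0.05 (SE, adjusted p = 1.07e-06, edgeR).

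Bcl3 (ENSMUSG00000053175, GRCm38 chromosome 7, 19808462 to 19822770, minus strand) encodes a nuclear partner of p50 and p52 homodimers. Its counts were 406, 446, 546 and 446 in 4T1-Sca1+ and 310.4, 364, 295 and 298 in 4T1-Sca1- libraries. Every 4T1-Sca1+ library was above every 4T1-Sca1- library, with replicate 3 the highest. Means were 461 ± 59.6 and 317 ± 32.4, a 1.46-fold increase with a log2 fold change of 0.55 ± 0.09 (SE, adjusted p = 4.22e-05, edgeR). Its transcript has the highest GC content of the 10 genes, 62.65%, and with GC-corrected offsets the log2 fold change was 0.24 (adjusted p = 1.43e-03), still past the threshold. Without 4T1-Sca1+ replicate 3 it was 0.46.

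**Figure D3:**
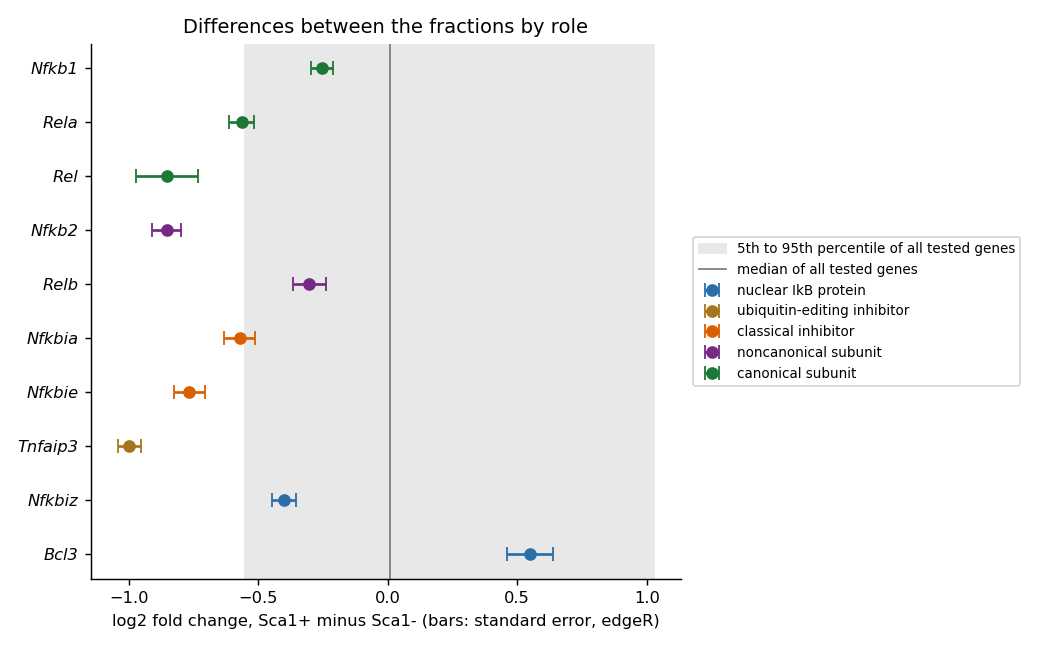
Log2 fold change (4T1-Sca1+ minus 4T1-Sca1-) of the 10 genes with its standard error, coloured by role, over the 5th to 95th percentile of all tested genes (grey band, -0.55 to 1.03) and their median (line). Rela, Rel, Nfkb2, Nfkbia, Nfkbie and Tnfaip3 lie left of the band, and Bcl3 is the one gene right of the line.

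Levels were compared between genes per length, as CPM per kilobase of exon. The length took all annotated exons of a gene together, 12061 bases for Nfkb1 against 3072 for Rela, and the order depends on it. By normalized counts Nfkb1 stood above Rela in 4T1-Sca1+ cells (2846 against 2346) and below it in 4T1-Sca1- cells (3422 against 3499). Per kilobase, Nfkbia was the highest of the 10 in both fractions, at 109 CPM per kilobase in 4T1-Sca1+ and 162 in 4T1-Sca1- cells. Nfkb2 followed at 65.3 and 118, then Rela at 50.5 and 74.6 and Tnfaip3 at 26.5 and 52.9 CPM per kilobase. Nfkbiz (19.6 and 25.9), Nfkbie (18.0 and 30.5), Nfkb1 (15.6 and 18.6) and Relb (14.1 and 17.4 CPM per kilobase) formed a middle group. Bcl3 had 12.3 in 4T1-Sca1+ and 8.39 in 4T1-Sca1- cells, and Rel 0.752 and 1.35 CPM per kilobase.

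To set the canonical against the noncanonical arm within each library, 3 log2 ratios of normalized counts were tested with an exact permutation test, two-sided, over the 70 assignments of 4 and 4 libraries, whose smallest possible p is 0.0286. Nfkb2 fell more than Nfkb1. The log2 ratio of Nfkb2 to Nfkb1 was 0.61, 0.58, 0.79 and 0.69 in 4T1-Sca1+ replicates 1 to 4 and 1.21, 1.36, 1.27 and 1.24 in 4T1-Sca1- replicates. The fractions did not overlap, and the ratio differed by -0.60 ± 0.06 (SE, exact permutation p = 0.0286, adjusted over 3 ratios 0.0429).

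Between the transactivating partners the order was the other way round, since Relb fell less than Rela. The log2 ratio of Relb to Rela was -1.56, -1.53, -1.41 and -1.53 in 4T1-Sca1+ and -1.69, -1.65, -1.83 and -1.89 in 4T1-Sca1- libraries. It was higher in all 4T1-Sca1+ libraries, by 0.26 ± 0.07 (SE, exact permutation p = 0.0286, adjusted 0.0429). Without 4T1-Sca1+ replicate 2 the exact permutation p was 0.0571 at a difference of 0.27, and without 4T1-Sca1+ replicate 3 it was 0.0571 at 0.23. The ratio of Rel to Rela overlapped between the fractions, with -4.95 to -4.55 in 4T1-Sca1+ and -4.85 to -4.29 in 4T1-Sca1- libraries, and its difference of -0.28 ± 0.15 (SE) did not pass the test (exact permutation p = 0.2). Each arm held 1 gene with a small decrease (Nfkb1, Relb) and at least 1 with a larger decrease (Rela and Rel, Nfkb2).

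**Figure D4:**
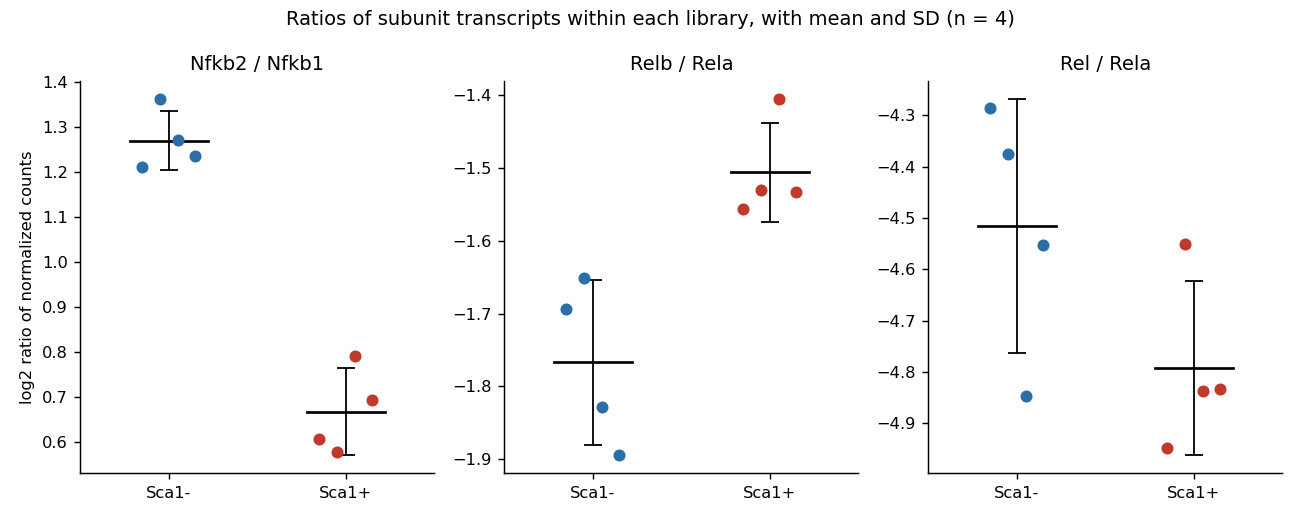
Log2 ratios of normalized counts within each library (points) with mean and SD of 4 libraries, for Nfkb2 over Nfkb1, Relb over Rela and Rel over Rela, on vertical axes that differ and do not start at 0. The fractions separate in opposite directions in the first and the second panel, and overlap in the third.

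Other ratios were chosen after the values were seen and are given without a test. The log2 ratio of Nfkbia to Rela, inhibitor to subunit, was 0.18 ± 0.08 in 4T1-Sca1+ and 0.19 ± 0.16 in 4T1-Sca1- cells (SD, n = 4), a difference of -0.0063 ± 0.09 (SE). The log2 ratio of Relb to Nfkb2 was higher in 4T1-Sca1+ cells by 0.55 ± 0.03 (SE) and did not overlap between the fractions. That of Bcl3 was higher by 0.80 ± 0.11 relative to Nfkb1 and by 1.41 ± 0.07 relative to Nfkb2 (SE).

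The rest of the pathway was read from lists of genes, each described by its counts and its median. The counts stand against 31.3% called higher and 30.2% called lower over all tested genes. Genes named only beside a small count were picked out after their values were seen. Of 8 receptors that feed the canonical arm, 5 were higher in 4T1-Sca1+ cells (Tnfrsf1a, Tnfrsf1b, Il1r1, Tlr4 and Il17ra), 2 were lower (Tlr2 and Tlr3) and 1 was not called, with a median log2 fold change of 0.35. The call of Il17ra, at 0.14 ± 0.05 (SE), was lost in 8 of 18 alternative fits. Il1r1, the signalling receptor for IL-1, was highest at 546 ± 16.1 against 284 ± 19.6 normalized counts (log2 fold change 0.96 ± 0.07, SE). Tlr2, a receptor for bacterial lipoproteins, was lowest at -0.54 ± 0.08. Of 4 tested receptors of the noncanonical arm, Ltbr, the lymphotoxin beta receptor, was called higher at 0.28 ± 0.05, a call lost with GC-corrected offsets, where it was 0.04. The other 3 were not called, and the median of the 4 was 0.19.

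Among 15 adaptors and ubiquitin ligases that carry the signal, 5 were higher (Traf5, Tradd, Rbck1, Irak1 and Myd88), 3 lower (Traf1, Birc3 and Birc2) and 7 not called, with a median of 0.09. Over all tested genes 31.3% were higher and 30.2% lower. Traf1, a TNF receptor adaptor that is itself an NF-kappaB target, was lowest at 1181 ± 12.8 against 2050.0 ± 111 normalized counts (log2 fold change -0.78 ± 0.05, SE). Traf5 was highest at 0.96 ± 0.11, and it overlaps the microRNA gene Mir3473c on the same strand.

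The IKK complex was uneven. Of 10 kinases and their partners, 3 were higher (Ikbkg, Tab1 and Ikbkb), 6 lower and 1 not called, with a median of -0.19. All tested genes had shares of 31.3% higher and 30.2% lower. Ikbkg, which encodes the regulatory subunit NEMO, was 1302 ± 45.9 in 4T1-Sca1+ and 595 ± 38.7 in 4T1-Sca1- cells (log2 fold change 1.14 ± 0.06, SE, adjusted p = 1.34e-11, edgeR). It overlaps G6pdx on the opposite strand, so reads of the pair cannot be told apart without strand. G6pdx itself was 2627 ± 130 against 2560.0 ± 88.0 normalized counts, and its log2 fold change of 0.05 ± 0.05 was not past the threshold. Ikbkb, the catalytic subunit of the canonical arm, was higher by 0.16 ± 0.04 on the log2 scale, whereas Chuk, which encodes IKKalpha and acts in the noncanonical arm, was lower at -0.38 ± 0.07. Map3k14, which encodes NIK, was slightly lower at -0.17 ± 0.05, and at -0.36 with GC-corrected offsets. Tab3, a partner of the kinase TAK1, was lowest at -0.46 ± 0.07.

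Other inhibitors and deubiquitinases gave 1 higher, 6 lower and 8 not called of 15, with a median of -0.08. The shares over all tested genes were 31.3% higher and 30.2% lower. Tnip1, which encodes an A20-binding protein, was lowest at 1581 ± 76.7 against 2462 ± 126 normalized counts (log2 fold change -0.63 ± 0.05, SE). N4bp1 was the one called higher, at 0.12 ± 0.05, a call lost in 8 of 18 alternative fits. The remaining classical IkB gene, Nfkbib, was -0.46 ± 0.07 and overlaps Sirt2 on the opposite strand, while the nuclear IkB gene Nfkbid was -0.03 ± 0.12 and not called (adjusted p = 0.859, edgeR).

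Genes listed as NF-kappaB targets were mostly lower, in a list written with earlier results of these data known. Lcn2 and S100a8 were listed apart and are given below. Of 30 tested from a list of 32, 20 were lower, 2 higher (Tnfaip2 and Slc2a6) and 8 not called, with a median log2 fold change of -0.53, and 13 were at least 1.5-fold lower. Over all tested genes these shares were 30.2% lower, 31.3% higher and 4.08% at least 1.5-fold lower. Slc2a6 left the test, and the higher count became 1, when every library had to hold 10 counts. In other fits the higher count became 3, among them GC-corrected offsets and leaving out 4T1-Sca1+ replicate 3. The lower count was 21 in both of these. Cxcl10, a chemokine, was lowest at 36.2 ± 3.22 against 150.2 ± 12.1 normalized counts (log2 fold change -2.04 ± 0.12, SE). It overlaps Art3 on the opposite strand. Tnfaip2 was higher at 0.40 ± 0.04, and at 0.25 with GC-corrected offsets. Among the 20 tested targets that had a promoter window, 55% held the kB consensus, where 12.5% of 9167 tested genes with a window did. These genes were listed because they are known as NF-kappaB targets, so a high share could follow from that choice alone. The GC content of their windows is not given here. Over all genes with a window the share was 12.3% in those called lower, 13.8% in those called higher and 11.6% in those not called.

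Of 6 listed targets known to need IkBzeta, Lcn2 and S100a8 passed the filter on low counts. The list is not a full set of such targets and was written with earlier results of these data known. These genes therefore do not describe IkBzeta targets as a group. Lcn2, which encodes the iron-scavenging protein lipocalin 2, was 13412 ± 916 in 4T1-Sca1+ and 3162 ± 217 in 4T1-Sca1- cells (log2 fold change 2.10 ± 0.06, SE, adjusted p = 1.23e-14, edgeR). S100a8 had 164 counts over the 4T1-Sca1+ and 28 over the 4T1-Sca1- libraries, so that it entered the test through the fraction where it was high, and it left the test when every library had to hold 10 counts. Il6 had 29 counts over the 4T1-Sca1+ and 8 over the 4T1-Sca1- libraries and did not pass the filter.

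**Figure D5:**
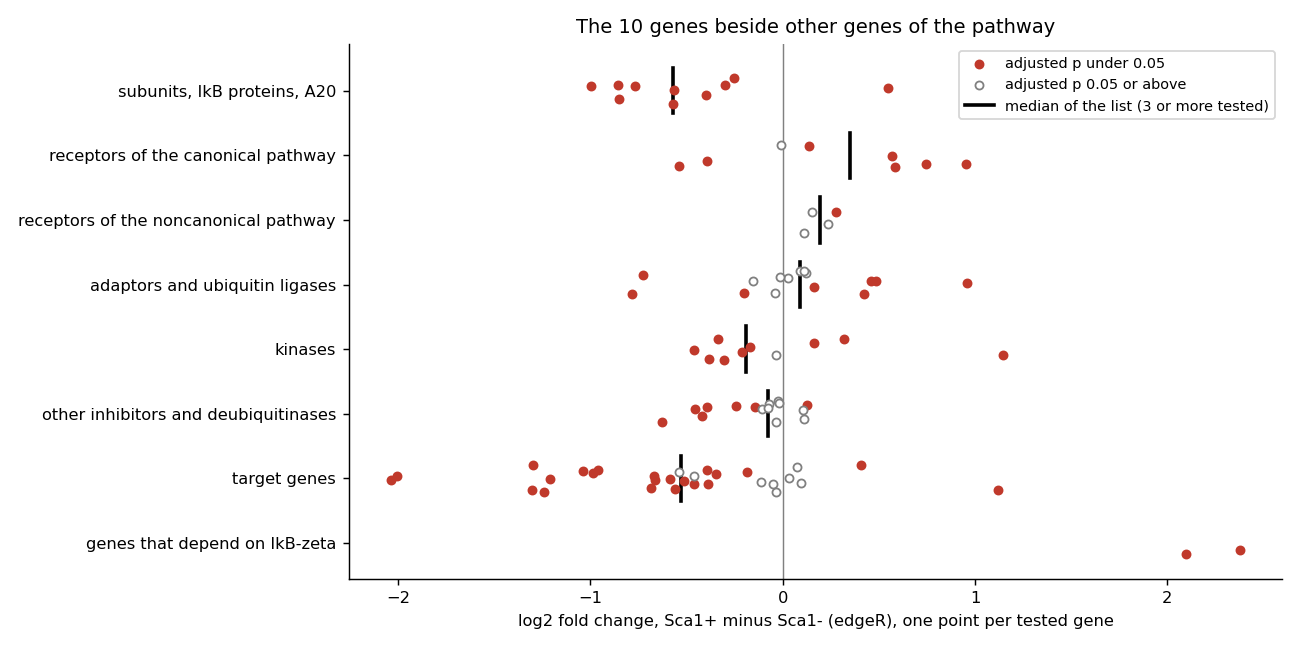
Log2 fold change (4T1-Sca1+ minus 4T1-Sca1-) of each tested gene in the pathway lists, filled where edgeR's adjusted p was under 0.05, with a black line at the median of each list of 3 or more. The 10 genes and the target list have medians of -0.57 and -0.53, while the receptor lists have medians above 0 (0.35 and 0.19).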

How the data were processed

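RNA was sequenced from 4 libraries of 4T1-Sca1+ and 4 of 4T1-Sca1- cells, made with a TruSeq kit. The authors deposited raw counts per gene and a table of normalized counts, whose unit here is signal, since its values equal the deposited counts divided by a size factor per library (largest relative difference 5.1e-15). That table leaves out 969 genes. Per the labels, the submitters' processing notes name cutadapt 1.16, STAR 2.5.3a and GRCm38. The counting tool and its strand setting are not given in the sources used here. Reads were amplified by PCR and carry no molecular identifiers, so they need not stand for separate molecules. The SD and SE given reflect only the spread between these libraries.

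Symbols, positions and GC content came from GENCODE M21, matched by Ensembl ID for 16200 of 16341 genes. Counts were tested with edgeR 4.0.16 in R 4.3.3 (filterByExpr, TMM, quasi-likelihood, two-sided, no covariate, Benjamini-Hochberg over 11717 genes, threshold 0.05), and 4624 genes were not tested. Ratios were tested with an exact permutation test in SciPy 1.17.1. Code was tested on simulated data. Alternatives were other scalings and filters, DESeq2 1.42.0, limma 3.58.1 (voom, and log2(value + 1) of the deposited signal), a replicate block, GC-corrected offsets, stricter thresholds and leaving out each library. The 1.5-fold count and the GC comparison of the ratios were chosen after seeing the data.

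The 10 genes and all lists, written from general knowledge, were chosen with earlier results of these data known. From each other pathway list, the cell type markers aside, were named the called genes with the highest and the lowest log2 fold change. Only genes averaging 50 or more normalized counts were eligible. Map3k14, Chuk, Ikbkb and Ikbkg were named as well. The study's own signature of 4T1-Sca1- cells, chosen on these libraries, lists Nfkb2, Rel, Nfkbie and Tnfaip3 and was not used as evidence.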

Additional observations from a re-analysis of the deposited data

Results flagged for a closer look

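Among 26 tests for a sample far from the others of its group, 2 were positive, where chance flags about 5% of groups. Relb stood at 948 normalized counts in replicate 3 of 4T1-Sca1+, above the 784 to 793 of the other 3 libraries of that fraction. Tnfaip3 had 2795 in the same library, below the 2915 to 2937 of the others.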

How the results depend on the processing

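In 18 alternative fits of each of the 10 genes, all 180 values kept their direction and their side of the threshold, and the highest adjusted p was 3.37e-03, for Relb. The alternative scalings and fits moved the median of all tested genes by at most 0.04 (log2). Of 280 alternative counts for the pathway lists, 29 moved by more than 1.5 times. When calls also had to reach a log2 fold change of 1 in size, 0 of the 10 genes were higher and 0 lower, and 612 genes were higher and 103 lower over all genes, since fewer genes reach that size. The count of the 10 genes at least 1.5-fold lower ran from 4 to 6 over the fits. GC-corrected offsets changed the log2 fold change of Nfkb2 minus that of Nfkb1 from -0.60 to -0.88, that of Relb minus Rela from 0.26 to 0.33, that of Rel minus Rela from -0.29 to 0.02 and that of Bcl3 minus Nfkb1 from 0.80 to 0.42, and the cause was not tested. Leaving out 1 library gave -0.64 to -0.57 for the log2 ratio of Nfkb2 to Nfkb1, 0.22 to 0.30 for Relb to Rela and -0.39 to -0.20 for Rel to Rela.

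No pairing of libraries by replicate number was detected. The correlations of same-numbered libraries were 0.10, -0.15, -0.03 and -0.00107, and 1 library correlated best with its own number. With 4 libraries per fraction, a weak shared effect could be missed. With the replicate block, 9 of the 10 genes were lower and 1 higher, as without it, and over all genes 3605 were higher and 3452 lower. Pairing by number leaves the ratio differences unchanged by construction, at -0.60 for Nfkb2 to Nfkb1 and 0.26 for Relb to Rela. Their exact sign-flip p was 0.125, which is the smallest that 4 pairs allow.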
